A study of Mus musculus with 4 samples.

Results

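Genes that act in S phase, the part of the cell cycle in which the genome is copied, were followed in single-cell transcriptomes of mouse macrophages. The set was a fixed list of 33 symbols, and all 33 were found among the 14432 genes of the count table. They were read in 27366 cells, of which 2209 belong to the cluster that the authors named Proliferating and 25157 to the 8 other clusters.

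The cells were bone marrow-derived macrophages (BMDMs), primary macrophages grown out of marrow in recombinant M-CSF (50 ng/mL), the growth factor that keeps macrophages alive and dividing. Marrow donors were 8 to 12 weeks old. The 4 groups, with 1 library each, were Trpv4-null BMDMs given lipopolysaccharide (LPS, a bacterial cell wall component) at 100 ng/mL for 24 h, Trpv4-null BMDMs left untreated, C57BL/6J wild-type (WT) BMDMs given the same LPS, and C57BL/6J BMDMs left untreated. All 4 groups share the M-CSF culture, and the labels do not say which part of Trpv4 the null allele lacks. The design text speaks of 3 mice per genotype, but no mouse is named for any cell, so each group is a single library that may mix mice. No comparison between groups could be checked in replicates. The 4 comparisons also draw on the same 4 libraries and are not independent of each other.

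Before a cell copies its DNA, the proteins encoded by Cdc6 and by Mcm2 to Mcm7 load onto replication origins, a step called licensing. Cdc45 and the GINS complex, of which Gins2 is a subunit, then turn the loaded MCM ring into a moving helicase, primase and polymerases make the new strands around the PCNA clamp, and ribonucleotide reductase and its neighbours supply the nucleotides. Many of these genes are transcribed by the E2F factors, which the retinoblastoma proteins hold in check until cyclins D and E release them. Most macrophages in tissue divide little, whereas BMDMs in M-CSF keep cycling, and LPS is known to slow that cycling.

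Since many S phase genes are textbook E2F targets, the letters of their promoters were read. RefSeq promoters on GRCm38.p6, running from 250 bases before to 50 bases after each start site, were matched for 28 of the 33 genes. They were searched on both strands for TTTCCCGC, TTTGGCGC, TTTCGCGC and TTTGCCGC, 4 spellings of the E2F motif, and 13 of the 28 promoters (46.4%) held at least 1 of them. The same letters stood in 2.61% of the 27025 genes with a promoter in the table and in 4.44% of the 10688 such genes of the count table. Among the roles, 5 of 7 licensing and helicase promoters held them, 2 of 6 synthesis promoters, 3 of 7 chromatin promoters, 3 of 4 checkpoint and repair promoters, and 0 of 4 nucleotide supply promoters. Of 34 promoters of G2/M genes, which act at mitosis, 0 held them, while 26 (76.5%) held CCAAT in either orientation, against 18 of 28 S phase promoters (64.3%) and 41.1% of all genes. A match is a description of letters, not a bound site. The promoters shown are those of the gene with the most UMIs in each role that has a match, on the strand of the gene, with the E2F letters in capitals. Mcm6 lies at chr1:128359656-128359955 (minus strand), Pold3 at chr7:100121453-100121752 (minus strand), Uhrf1 at chr17:56304063-56304362 (plus strand) and Clspn at chr4:126556730-126557029 (plus strand).
Mcm6: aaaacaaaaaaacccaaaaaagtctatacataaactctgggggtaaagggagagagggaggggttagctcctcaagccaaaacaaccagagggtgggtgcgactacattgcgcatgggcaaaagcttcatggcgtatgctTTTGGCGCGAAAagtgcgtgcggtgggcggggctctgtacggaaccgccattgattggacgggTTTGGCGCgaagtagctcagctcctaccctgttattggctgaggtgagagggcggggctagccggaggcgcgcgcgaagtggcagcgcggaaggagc
Pold3: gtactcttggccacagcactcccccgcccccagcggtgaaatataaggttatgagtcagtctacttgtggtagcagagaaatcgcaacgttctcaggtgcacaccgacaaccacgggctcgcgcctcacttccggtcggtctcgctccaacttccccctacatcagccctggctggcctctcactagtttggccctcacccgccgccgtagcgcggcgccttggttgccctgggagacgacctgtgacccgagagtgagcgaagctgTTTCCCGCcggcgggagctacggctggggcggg
Uhrf1: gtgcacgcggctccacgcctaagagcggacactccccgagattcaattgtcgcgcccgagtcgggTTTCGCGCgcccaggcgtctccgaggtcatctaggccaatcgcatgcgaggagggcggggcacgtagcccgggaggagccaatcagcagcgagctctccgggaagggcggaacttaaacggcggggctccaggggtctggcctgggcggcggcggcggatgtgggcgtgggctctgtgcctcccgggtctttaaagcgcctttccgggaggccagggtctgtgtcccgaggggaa
Clspn: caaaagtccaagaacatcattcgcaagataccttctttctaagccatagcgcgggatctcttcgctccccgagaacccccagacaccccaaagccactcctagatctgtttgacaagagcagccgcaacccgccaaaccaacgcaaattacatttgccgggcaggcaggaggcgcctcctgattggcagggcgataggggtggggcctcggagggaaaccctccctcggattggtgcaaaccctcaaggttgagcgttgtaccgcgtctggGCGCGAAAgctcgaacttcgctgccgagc
In the Mcm6 promoter the capitals cover 2 places. The upstream one joins 2 overlapping matches, one on each strand, whose first bases lie at -110 and -106 from the start site, and the other match begins at -47. The match in Uhrf1 begins at -185, whereas those in Pold3 and Clspn lie past the start site, at 18 and 22.

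Some facts of the 4 libraries bear on what follows. Transcripts were counted by unique molecular identifiers (UMIs), short random tags that mark single captured molecules. UMIs were summed per library and given as counts per 1000000 UMIs (CPM), with 95% intervals that cover counting error only. The median cell held 16041 and 7893 UMIs in the libraries labelled Trpv4-null (LPS and untreated) and 16674 and 5660.5 UMIs in the WT libraries (LPS and untreated). The gene Trpv4 itself was not lower where the label says null, with 9.62 and 8.60 CPM in the libraries labelled Trpv4-null (LPS and untreated), against 2.07 and 5.83 CPM in WT, so the genotype is given throughout as a label. All 10 fixed macrophage markers, among them Lyz2 and Csf1r, reached 20 CPM inside and outside the Proliferating cluster in every library. Of 9 progenitor markers in the table, Spi1 alone reached 20 CPM in Proliferating cells, and macrophages express it too. The monocyte list (5 genes) summed to 875 and 770 CPM after LPS in Proliferating cells (null label and WT), against 78.5 and 113 CPM untreated. Ms4a4c made up most of it after LPS (819.7 and 692 CPM, against 17.9 and 11.0 CPM untreated), while Ccr2 went the other way (8.06 and 13.5 CPM after LPS, against 51.9 and 83.1 CPM untreated). The neutrophil list (6 genes) summed to 297 and 458 CPM after LPS, against 53.9 and 1346 CPM untreated. After LPS most of the neutrophil sum was Lcn2 (282 and 257 CPM). Proliferating cells with at least 10 UMIs of granule genes numbered 4 over all libraries, and cells outside the cluster were not counted. The B cell list (3 genes in the table) summed to 2.15 and 3.46 CPM after LPS outside the cluster, against 159 and 151 CPM untreated, where Ighm was nearly all of it, and to 6.9985 and 7.88 CPM after LPS inside it, against 35.9 and 25.1 CPM untreated, while Ms4a1 stayed at or near 0. The part of these 3 lists in the results was not tested. Between libraries, 74 cell barcodes were shared.

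LPS went with opposite shifts of the S phase and the G2/M genes in the Proliferating cells. Summed over the 33 S phase genes, Proliferating cells held 2491 CPM after LPS, against 1241 CPM untreated, in the libraries labelled Trpv4-null, a ratio of 2.01 (1.96 to 2.06). In WT they held 2829 CPM after LPS, against 1156 CPM untreated, a ratio of 2.45 (2.37 to 2.53). The 40 G2/M genes, chosen from those of spindle, kinetochore and mitotic exit, went the other way, with 3175 CPM after LPS and 10912 CPM untreated in the libraries labelled Trpv4-null, and 2833 CPM after LPS and 10327 CPM untreated in WT. Both LPS-treated libraries lay above both untreated ones for S phase and below both for G2/M. The Proliferating cells thus held 0.784 S phase UMIs per G2/M UMI after LPS, against 0.114 untreated, under the null label, and 0.999 after LPS, against 0.112 untreated, in WT. The lower G2/M level was not particular to these cells. Outside the cluster the G2/M sum was 119 CPM after LPS, against 486 CPM untreated, under the null label. In WT it was 114 CPM after LPS there, against 438 CPM untreated. The authors drew the cluster from expression that may include these genes, so the choice of cells and the level within them cannot be told apart. Over all cells of a library, where no cluster is used, the S phase sum was 605 CPM after LPS, against 481 CPM untreated, under the null label and 576 CPM after LPS, against 436 CPM untreated, in WT. There the S phase UMIs per G2/M UMI were 1.31 after LPS, against 0.256 untreated, and 1.67 after LPS, against 0.357 untreated, in the same order of genotype labels. Of 11 S phase genes compared over all cells, 6 were higher after LPS under the null label (29.3% of all genes compared were) and 7 in WT (28.8% were). At 2-fold or more these were Mcm3 and Mcm5, of the replicative helicase, in each genotype, a size that 7.30% and 6.90% of all genes reached. In such sums, fewer cells of a kind and less RNA per cell cannot be told apart.

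**Figure D1:**
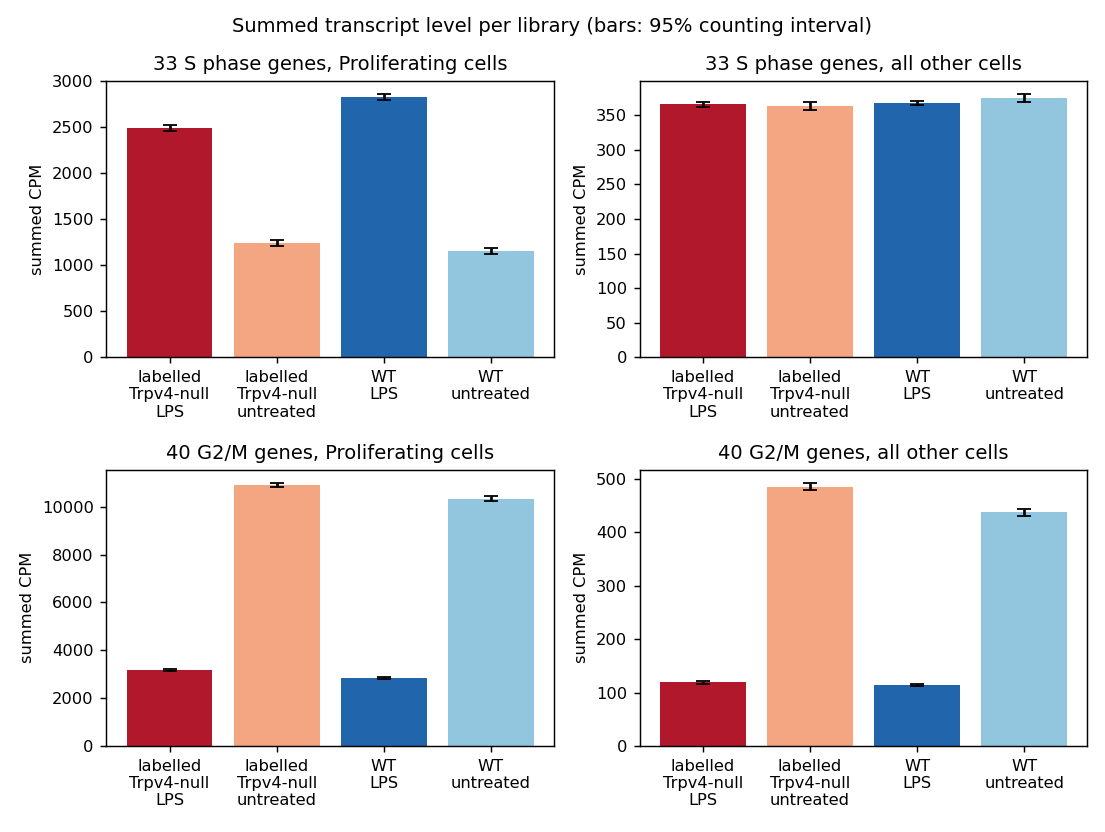
Summed CPM of the 33 S phase genes (top) and of 40 G2/M genes (bottom) in Proliferating cells (left) and all other cells (right) of each of the 4 libraries, with bars for the 95% counting interval. In Proliferating cells the S phase sum is 2491 and 2829 CPM after LPS, against 1241 and 1156 CPM untreated, while outside the cluster it lies between 364 and 374 CPM in every library.

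Every S phase gene was higher after LPS in the Proliferating cells of both genotypes, although by very different amounts. Of the 33 genes, 30 reached at least 20 CPM and 30 UMIs in the higher library and were compared. All 30 were higher after LPS under the null label, where 29.4% of all 6664 genes compared were higher, and 19 were at least 2-fold higher, where 7.49% of all genes were. In WT, all 30 were again higher, where 28.5% of all 6689 genes compared were, and 22 were at least 2-fold higher, where 7.22% were. The median log2 ratio of the 30 was 1.25 under the null label and 1.38 in WT, on the scale of log2(CPM + 1), whereas the median of all genes compared was -0.40 in each. Taken with the 3 genes under the minimum (Cdca7, Ung and Msh6), all 33 were higher in both genotypes, also with TMM and with median-of-ratios scaling, which add 0.46 to 0.51 to log2 ratios, less for genes of few CPM. Proliferating cells were deeper after LPS (median 19062 and 20447 UMIs, against 10553 and 7128 untreated), their median mitochondrial share was lower (3.61% and 3.58%, against 6.41% and 6.30%), and their Fth1 share higher, with 9.76% and 10.1% of UMIs from Fth1 after LPS, against 3.11% and 2.87% untreated. The part of these shifts in the results was not tested.

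The licensing and helicase genes had the highest LPS ratio of the 5 roles when summed, at 2.48 (2.36 to 2.61) under the null label and 3.11 (2.91 to 3.33) in WT. By the median gene compared, chromatin and histone genes were higher under the null label (log2 ratio 1.39, against 1.33 for licensing). Without the minimum, which leaves out Cdca7, they were higher in both genotypes (1.70 against 1.33 under the null label, and 1.81 against 1.76 in WT). The licensing and helicase sum was 733 CPM after LPS, against 295 CPM untreated, under the null label and 846 CPM after LPS, against 272 CPM untreated, in WT. Cdc6, which loads the MCM ring, stood at 23.2 CPM after LPS and 5.27 CPM untreated under the null label, a ratio of 4.40 (3.07 to 6.52). In WT, Cdc6 had 27.2 CPM after LPS and 3.17 CPM untreated, a ratio of 8.56 (4.72 to 17.3) that rests on 11 untreated UMIs. Both LPS-treated libraries thus stood several times above both untreated ones. Cdc45, the helicase cofactor, had 39.1 CPM after LPS and 13.9 CPM untreated under the null label, and 39.5 CPM after LPS and 6.06 CPM untreated in WT. Mcm2 had 57.9 and 15.8 CPM (LPS and untreated) under the null label, a ratio of 3.66 (2.96 to 4.57), and 74.5 and 18.8 CPM in WT, a ratio of 3.97 (3.09 to 5.19). The smallest ratios among the 9 belonged to Mcm7, which had 93.02 CPM after LPS and 57.9 CPM untreated under the null label, and 117 CPM after LPS and 54.0 CPM untreated in WT. Ordered by LPS ratio, the 6 MCM genes began with Mcm2 and ended with Mcm7 in both genotypes.

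The genes of DNA synthesis and of the clamp had the lowest median log2 ratio of the 5 roles, at 0.80 under the null label and 0.86 in WT. By summed level, with ratios of 1.94 and 2.17, they stood above nucleotide supply (1.67 and 2.12) and checkpoint and repair (1.58 and 2.01). Pcna, the sliding clamp, had 232 CPM after LPS and 88.4 CPM untreated under the null label, and 257 CPM after LPS and 89.2 CPM untreated in WT, ratios of 2.63 (2.40 to 2.88) and 2.89 (2.57 to 3.25). Fen1, the nuclease that trims Okazaki fragments, was 2.06 (1.81 to 2.34) and 2.54 (2.16 to 3.00) times as high after LPS, in the same order of labels. These were the only 2 of the 7 at 2-fold or more. The catalytic polymerase subunit gene Pola1 had 27.4 CPM after LPS and 20.6 CPM untreated under the null label, and 26.9 CPM after LPS and 19.3 CPM untreated in WT. Rfc4, of the clamp loader, had ratios of 1.24 (1.04 to 1.49) under the null label and 1.33 (1.07 to 1.67) in WT, and the polymerase delta subunit gene Pold3 had 1.28 (1.10 to 1.49) and 1.58 (1.30 to 1.94). Rfc2 and the primase gene Prim1 lay between these, with ratios of 1.75 to 1.96 over both genotypes.

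Among the nucleotide supply genes, the 2 subunits of ribonucleotide reductase differed. Rrm2, the small subunit that is made in S phase, had 110 CPM after LPS and 49.5 CPM untreated under the null label, a ratio of 2.22 (1.96 to 2.52), and 129 CPM after LPS and 39.5 CPM untreated in WT, a ratio of 3.26 (2.74 to 3.91). Rrm1, the large subunit, had 200.03 CPM after LPS and 173 CPM untreated under the null label, a ratio of 1.16 (1.08 to 1.24), and 233 CPM after LPS and 157 CPM untreated in WT, a ratio of 1.48 (1.35 to 1.63). Their intervals did not overlap within either genotype. Tyms, thymidylate synthase, had 78.9 and 30.2 CPM (LPS and untreated) under the null label and 65.995 and 20.5 CPM in WT, and Dut, which removes dUTP, had 79.2 and 27.8 CPM under the null label and 107 and 34.9 CPM in WT.

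The chromatin and histone genes included several of the largest ratios. Hells, a chromatin remodeller, had 41.9 CPM after LPS and 8.94 CPM untreated under the null label, a ratio of 4.69 (3.55 to 6.30), and 59.5 CPM after LPS and 11.0 CPM untreated in WT, a ratio of 5.43 (3.92 to 7.73). Uhrf1, which carries DNA methylation through replication and works with the same maintenance machinery, had 93.7 and 28.1 CPM (LPS and untreated) under the null label and 119 and 28.9 CPM in WT, ratios of 3.34 (2.84 to 3.93) and 4.11 (3.35 to 5.08). Chaf1a and Chaf1b encode 2 subunits of the chromatin assembly factor CAF-1, and their intervals were apart under the null label but overlapped in WT. Chaf1b stood at 4.40 (3.34 to 5.87) under the null label and 3.78 (2.62 to 5.64) in WT, while Chaf1a stood at 1.65 (1.40 to 1.95) and 2.31 (1.84 to 2.93). Slbp, which binds histone mRNA, and Nasp, a histone chaperone, had ratios of 2.13 and 1.59 under the null label and 2.19 and 1.94 in WT. Cdca7 stayed low, at 5.94 CPM after LPS and 1.12 CPM untreated under the null label and 10.0 CPM after LPS and 1.73 CPM untreated in WT.

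Of the checkpoint and repair genes, Tipin, of the fork protection complex, was 2.59 (2.17 to 3.11) and 2.66 (2.13 to 3.36) times as high after LPS (null label and WT). Dtl, which marks proteins for destruction at PCNA, was 2.60 (2.03 to 3.37) and 2.96 (2.18 to 4.12) times as high. Usp1, a deubiquitinase that acts on PCNA, was among the 4 lowest ratios in both genotypes, with 102 CPM after LPS and 88.9 CPM untreated under the null label, and 115 CPM after LPS and 77.6 CPM untreated in WT. Ung, the uracil glycosylase, had few UMIs untreated, at 1.12 CPM under the null label and 0.866 CPM in WT, against 10.6 and 16.3 CPM after LPS. Msh6, a mismatch repair gene, was the one whose interval reached 1, with ratios of 1.27 (0.98 to 1.67) and 1.37 (0.9999 to 1.92).

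**Figure D2:**
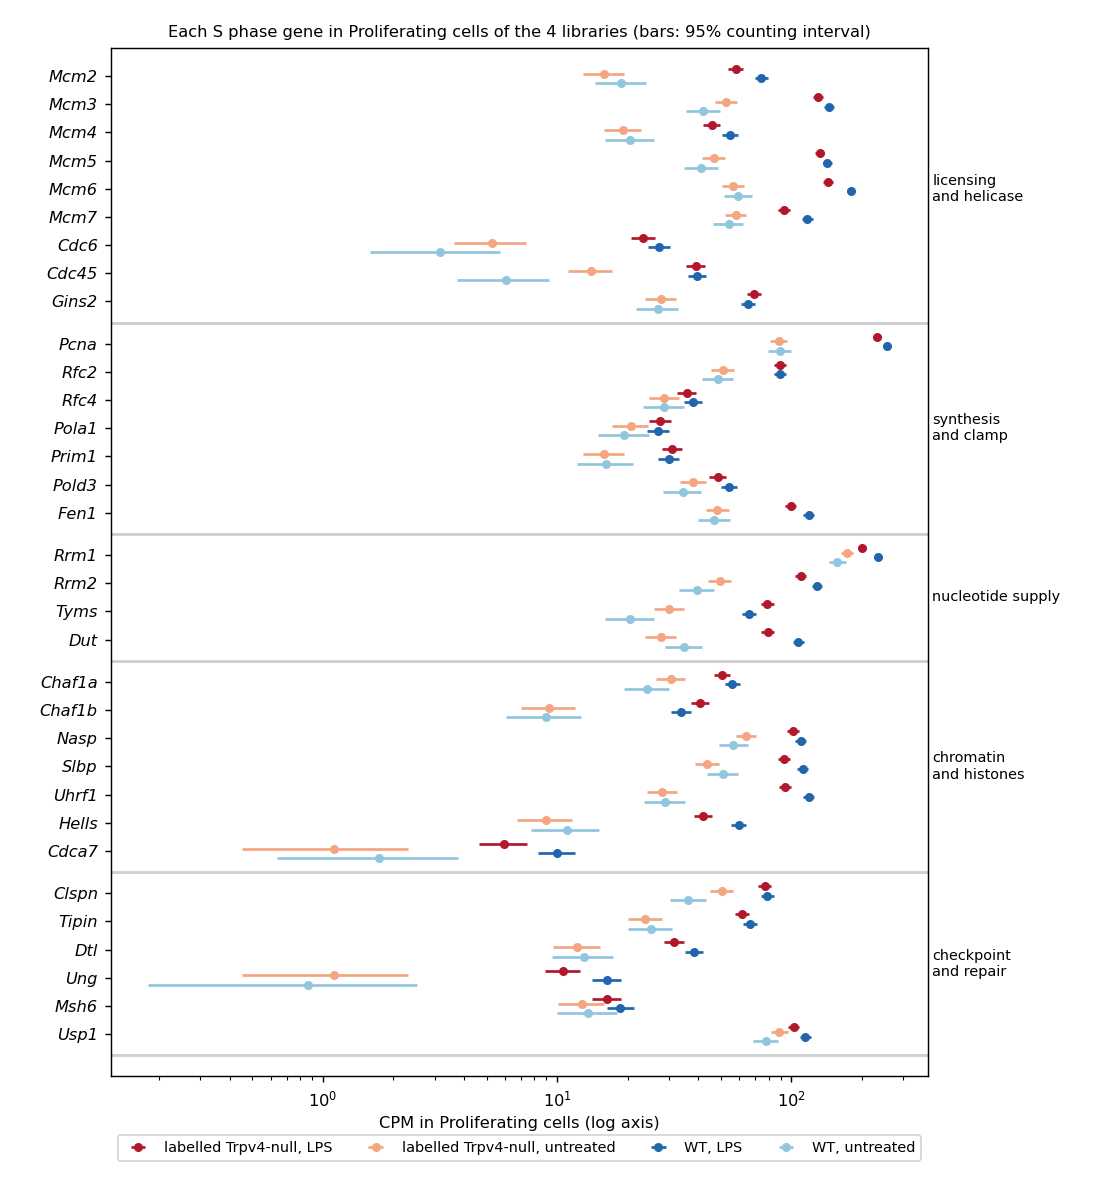
CPM of each S phase gene in the Proliferating cells of the 4 libraries on a log axis, by role, with bars for the 95% counting interval. Points of both LPS-treated libraries lie to the right of both untreated ones for genes such as Cdc6 (23.2 and 27.2, against 5.27 and 3.17 CPM), while those of Usp1 lie close together (102 and 115, against 88.9 and 77.6 CPM).

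In Proliferating cells, most other replication genes compared were also higher after LPS. Of 60 other replication genes, 40 were compared in Proliferating cells under the null label, with 34 higher after LPS and 8 at least 2-fold so (median log2 ratio 0.52), and 42 in WT, with 36 higher and 16 at least 2-fold so (median 0.83). Of all genes compared, 29.4% and 28.5% were higher (null label and WT), and 7.49% and 7.22% at least 2-fold so. Over all cells, 4 of 15 and 4 of 14 compared were higher, where 29.3% and 28.8% of all genes were. The sum of the 60 was 1.22 and 1.28 times as high there. Timeless, the partner of Tipin, had 47.7 CPM after LPS and 10.7 CPM untreated under the null label and 44.4 CPM after LPS and 7.50 CPM untreated in WT. At the other end stood Dbf4, the activator of the Cdc7 kinase that fires origins, with 46.8 CPM after LPS and 150.0 CPM untreated under the null label and 48.4 CPM after LPS and 128 CPM untreated in WT. The mitochondrial thymidine kinase gene Tk2 was lower too, with ratios of 0.289 (0.233 to 0.356) under the null label and 0.464 (0.370 to 0.585) in WT.

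Among 30 E2F, retinoblastoma and cyclin genes, 14 of 23 compared were higher after LPS under the null label and 13 of 24 in WT, with median log2 ratios of 0.30 and 0.25, beside the 29.4% and 28.5% of all genes that were higher. Among the extremes of this list in Proliferating cells were G1 cyclins, Cdkn1b and Rbl2. Its log2 ratios ran from -2.31 to 4.48 under the null label and from -2.12 to 4.16 in WT. Outside the cluster the span was much the same, from -2.41 to 4.06 and from -2.04 to 3.42. The values that follow are for Proliferating cells. Cyclin D2 (Ccnd2) had 42.8 CPM after LPS and 0.957 CPM untreated under the null label and 42.7 CPM after LPS and 1.44 CPM untreated in WT, and cyclin E1 (Ccne1) had 53.4 and 1.91 CPM and 56.1 and 3.46 CPM in the same order. Ccne2 was 7.83 (5.44 to 11.7) and 5.61 (3.96 to 8.22) times as high. Cdkn1b, which encodes the inhibitor p27, had 17.9 CPM after LPS and 92.9 CPM untreated under the null label and 21.4 CPM after LPS and 96.4 CPM untreated in WT, and the retinoblastoma relative Rbl2 had 14.2 and 57.6 CPM and 14.5 and 56.8 CPM. All 40 G2/M genes compared under the null label were lower after LPS, where 70.6% of all genes compared were, and all 39 compared in WT, where 71.5% were. The anaphase activator Cdc20 was the lowest in both, with 25.2 CPM after LPS and 248 CPM untreated under the null label and 16.1 CPM after LPS and 228 CPM untreated in WT. The chromosome passenger kinase Aurkb was among the least lowered in both, with log2 ratios of -0.71 and -0.20, and in WT it lay above 0 with TMM or median-of-ratios scaling, which add 0.48 and 0.46.

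Outside the Proliferating cluster, the summed S phase level hardly differed between libraries, while single genes did. The sum was 366 CPM after LPS and 364 CPM untreated under the null label, a ratio of 1.006 (0.987 to 1.03), and 368 CPM after LPS and 374 CPM untreated in WT, a ratio of 0.982 (0.964 to 0.99995). The median gene of all those compared lay at -0.41 and -0.38 on the log2 scale in these cells, and TMM scaling puts the S phase sum at 0.59 and 0.50. Of the 7 S phase genes that reached the minimum, 3 were higher after LPS under the null label (29.9% of all genes compared were) and 2 in WT (29.2% were). Their ratios, null label and then WT, were 1.48 and 1.07 for Pcna, 1.43 and 1.48 for Mcm6, and 1.03 and 0.876 for Rfc2. Slbp had 0.689 and 0.749, Nasp 0.717 and 0.782, Pold3 0.853 and 0.821 and Usp1 0.883 and 0.934, so the 7 lay within 1.5-fold of 1 in each genotype. Without the minimum of CPM, 17 of the 33 were higher after LPS in both genotypes and 14 lower in both. Of 11505 genes with at least 30 UMIs, 23.7% were higher and 70.7% lower in both. With median-of-ratios scaling, 27 of the 33 were higher in both and 5 lower. That scaling adds 0.61 and 0.54 to log2 ratios in these cells (null label and WT), less for genes of few CPM. The shares of all genes above are for library totals, and none is given for that scaling.

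Outside the cluster and with library totals, the licensing and helicase sum had LPS ratios of 1.40 (1.34 to 1.46) and 1.37 (1.31 to 1.43). Nucleotide supply (0.760 and 0.822), chromatin (0.817 and 0.890) and checkpoint and repair (0.778 and 0.866) were lower, null label and then WT. Synthesis had 1.08 and 0.93. The lowest role sum lay at -0.40 on the log2 scale, and median-of-ratios scaling adds 0.61 and 0.54. Single genes did not all follow the sum of their role. Mcm5 had 11.1 CPM after LPS and 3.46 CPM untreated under the null label, a ratio of 3.19 (2.68 to 3.83), and 9.51 CPM after LPS and 3.18 CPM untreated in WT, a ratio of 2.99 (2.49 to 3.62). Mcm3 was 2.04 (1.82 to 2.30) and 1.70 (1.53 to 1.89) times as high, and Mcm2 1.81 (1.51 to 2.17) and 1.95 (1.64 to 2.33) times. With Hells (2.20 and 2.36 times) and Uhrf1 (6.06 and 5.89 times), these made 5 genes at 1.5-fold or more in both genotypes, a size that 8.83% of the 11505 genes reached. Uhrf1 had 2.68 and 2.49 CPM after LPS (null label and WT), against 0.442 and 0.422 CPM untreated. The 4 genes at least 1.5-fold lower in both, a size that 37.3% of all reached, were Msh6, Dut, Rfc4 and Clspn. Among the licensing genes, Cdc6 was lower in both genotypes, with 1.35 and 1.65 CPM after LPS (null label and WT), against 3.56 and 2.46 CPM untreated, and Mcm7 had ratios of 0.763 (0.664 to 0.877) and 0.780 (0.681 to 0.894). Msh6 had 3.93 and 4.78 CPM after LPS (null label and WT), against 12.6 and 10.3 CPM untreated, while Dut had 6.58 and 7.37 CPM after LPS, against 11.8 and 11.8 CPM untreated. Dut was thus lower after LPS outside the cluster and higher inside it, in both genotypes. All 9 genes at 1.5-fold in both genotypes kept their direction with TMM and with median-of-ratios scaling.

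Some of these directions held in every large cluster of the authors. Outside Proliferating, 7 clusters held 100 or more cells per library. There Mcm2, Mcm3, Mcm5, Mcm6 and Dtl were higher after LPS in all 7 and in both genotypes, and Dut, Msh6 and Rfc4 lower in all 7. Of the 11505 genes, 12.2% were higher and 44.0% lower in all 7 and both genotypes. Beside these shares, 5 of 33 higher is close and 3 of 33 lower is few, so the higher count does not set the S phase genes apart. All 7 clusters come from the same 4 libraries, so their agreement is no replication. Dtl was at 0 CPM in some untreated clusters, so its direction rests on few UMIs. Hells was higher in 6 of the 7 clusters in each genotype, Uhrf1 in 6 under the null label and 7 in WT, and Clspn was lower in 7 under the null label and 6 in WT. Mcm5 ranged over these clusters from 8.84 to 20.3 CPM after LPS, against 2.42 to 4.68 CPM untreated, under the null label, and from 7.76 to 12.7 CPM after LPS, against 1.75 to 5.64 CPM untreated, in WT. Its ranges after LPS and untreated did not overlap. Msh6 ranged from 3.38 to 5.77 CPM after LPS, against 8.65 to 13.9 CPM untreated, under the null label, and from 3.72 to 6.07 CPM after LPS, against 6.78 to 13.2 CPM untreated, in WT. The LPS ratio of the summed S phase level was highest, of these 7, in the cluster named Tmem176+, with 453 CPM after LPS and 362 CPM untreated under the null label and 414 CPM after LPS and 336 CPM untreated in WT. It was lowest in the cluster named Macrophage, with 336 CPM after LPS and 367 CPM untreated under the null label and 335 CPM after LPS and 379 CPM untreated in WT. The sums of the cluster High_Btg1 stood above all of these at 607 to 730 CPM, from as few as 3 cells in a library.

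**Figure D3:**
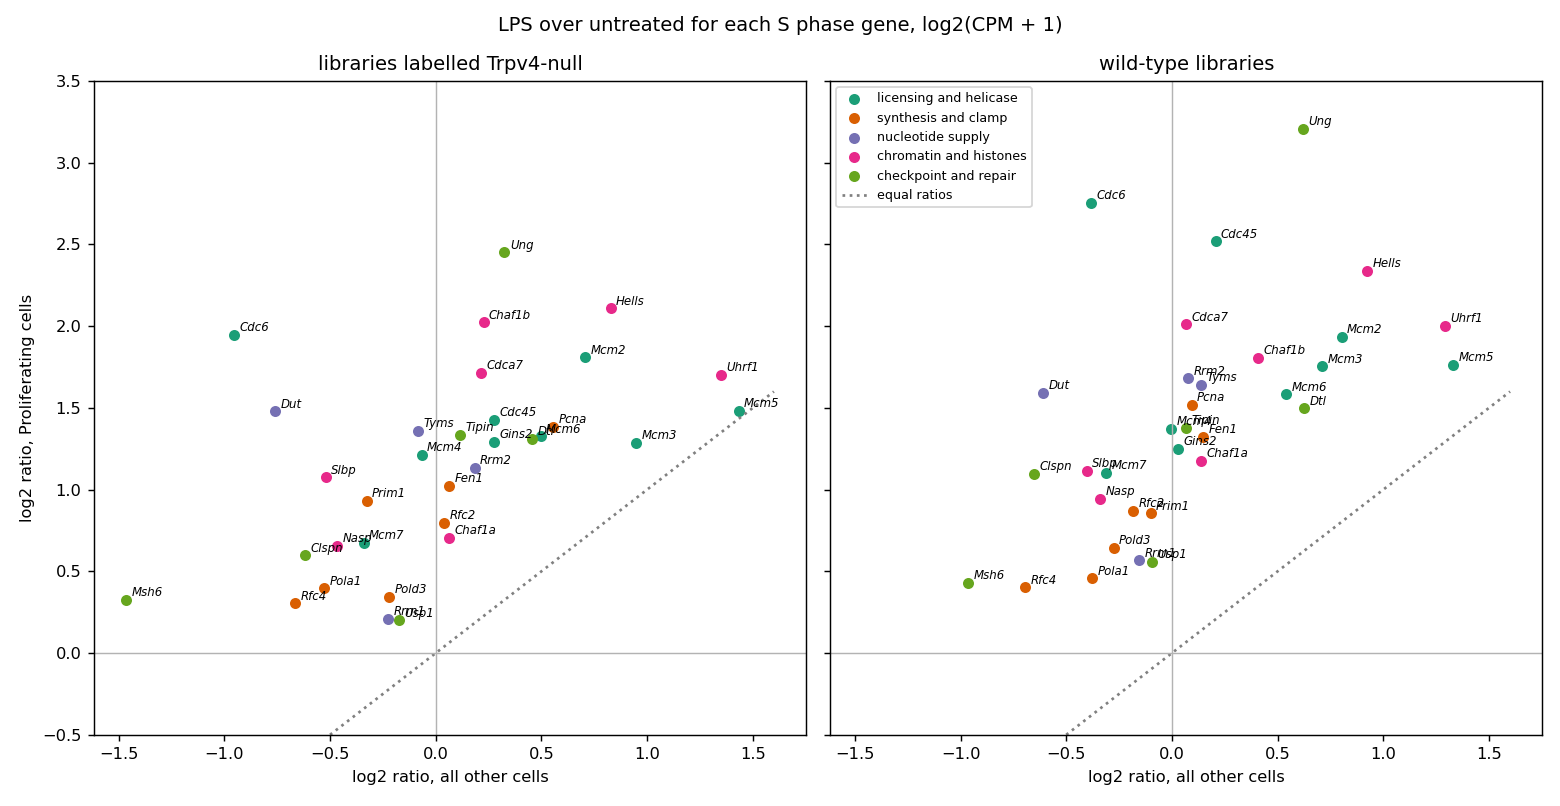
Log2 ratio of LPS over untreated for each S phase gene in Proliferating cells (vertical) against all other cells (horizontal), for the libraries labelled Trpv4-null (left) and WT (right), coloured by role, with a dotted line where both ratios are equal. Every gene lies above 0 on the vertical axis, while genes spread to both sides of 0 on the horizontal one, from Msh6 (-1.46 and -0.96) to Mcm5 (1.43 and 1.33).

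How far a gene's transcripts were gathered in the Proliferating cells differed widely. These cells made up 9.81% and 9.88% of the cells labelled Trpv4-null (LPS and untreated) and 7.26% and 5.99% of the WT cells (LPS and untreated). Of all UMIs they held 11.3% and 13.3% under the null label and 8.45% and 7.93% in WT, in the same order. They held 94.0% and 91.99% of the Rrm2 UMIs under the null label (LPS and untreated), and 94.6% and 85.1% in WT. Thinned to 3000 UMIs per cell, Rrm2 was seen in 26.7% and 10.1% of Proliferating cells under the null label (LPS and untreated) and in 33.6% and 8.88% in WT. Outside the cluster it was seen in 0.22% to 0.25% of cells in all 4 libraries. Uhrf1 had 81.6% and 90.7% of its UMIs inside under the null label (LPS and untreated) and 81.5% and 85.5% in WT. Clspn had 86.5% and 73.0% inside under the null label and 82.9% and 51.6% in WT. At the other end, Pold3 had 19.2% and 16.1% of its UMIs inside under the null label and 16.0% and 8.46% in WT. Cdc6 differed between conditions, with 68.5% of its UMIs inside after LPS, against 18.5% untreated, under the null label, and 60.3% after LPS, against 10.0% untreated, in WT. The share of Dut was 60.4% after LPS, against 26.5% untreated, under the null label and 57.3% after LPS, against 20.3% untreated, in WT. As the cluster may have been drawn with these genes, the gap between inside and outside is a description.

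Cell by cell, the S phase level of the median Proliferating cell was also higher after LPS. Each cell was thinned to 3000 UMIs, which left out 93 and 209 shallower cells under the null label (LPS and untreated) and 122 and 666 in WT. The median Proliferating cell then held 7 S phase UMIs after LPS, against 3 untreated, under the null label, and 9 after LPS, against 2 untreated, in WT. At least 10 S phase UMIs were found in 33.1% (29.5 to 36.9) of Proliferating cells after LPS, against 4.87% (3.20 to 7.05) untreated, under the null label, and in 42.0% (38.0 to 46.1) after LPS, against 6.60% (4.36 to 9.52) untreated, in WT. Cells with more S phase than G2/M UMIs were 43.2% of the cluster after LPS, against 0.562% untreated, and 54.2% after LPS, against 3.81% untreated. Counted over all cells of a library without regard to cluster, cells with at least 10 S phase UMIs were 3.31% after LPS, against 0.512% untreated, under the null label and 3.12% after LPS, against 0.424% untreated, in WT. Of these cells, 210 of 214 and 26 of 27 (LPS and untreated) lay in the Proliferating cluster under the null label, and 248 of 255 and 26 of 27 in WT. Outside the cluster, cells with at least 5 S phase UMIs were 2.67% after LPS, against 0.612% untreated, under the null label and 2.57% after LPS, against 0.788% untreated, in WT, even though the mean per cell there lay between 1.08 and 1.14 UMIs in all libraries.

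**Figure D4:**
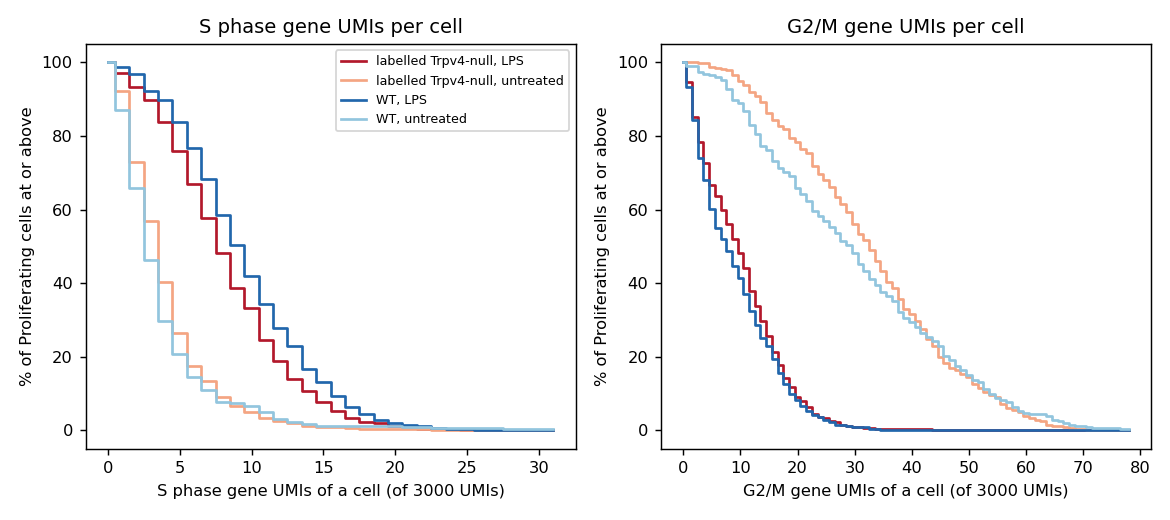
Percent of Proliferating cells (vertical) with at least a given number of S phase UMIs (left) or G2/M UMIs (right) out of 3000 (horizontal), 1 line per library. At 10 S phase UMIs the lines of the LPS-treated libraries stand at 33.1% and 42.0%, those of the untreated ones at 4.87% and 6.60%, and the order is the other way round for G2/M.

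The S phase genes did not all fall in the same Proliferating cells. The cells of each library were divided into 3 equal groups by the share of G2/M transcripts. The summed S phase level did not follow that share in 1 direction over the libraries. From the lowest to the highest group after LPS, it was 2502, 2624 and 2342 CPM under the null label and 2570, 2938 and 2973 CPM in WT. After LPS the highest group was thus below the lowest under the null label and above it in WT, with intervals that did not overlap. Untreated, the sum was 1105, 1429 and 1177 CPM under the null label and 1208, 1193 and 1078 CPM in WT. Several single genes followed the G2/M share in the same direction in both LPS-treated libraries. Several licensing genes leaned to cells low in G2/M transcripts, such as Cdc6 with 34.8, 22.3 and 12.4 CPM from the lowest to the highest group under the null label and 35.5, 30.1 and 15.5 CPM in WT, and so did Hells with 58.0, 45.1 and 22.3 CPM and 83.7, 58.6 and 36.1 CPM. Ung had 24.7, 6.95 and 0 CPM under the null label and 33.5, 13.6 and 1.78 CPM in WT. Rrm1, Rrm2 and Tyms of the nucleotide supply leaned the other way, with Rrm2 at 38.9, 138 and 152 CPM under the null label and 27.5, 155 and 203 CPM in WT, and Tyms at 37.5, 94.95 and 104 CPM and 25.96, 76.6 and 94.8 CPM. Comparing the highest with the lowest group, the interval of the ratio lay below 1 in both LPS-treated libraries for 10 genes (Cdc6, Cdca7, Dtl, Hells, Mcm2, Mcm3, Mcm4, Mcm6, Msh6 and Ung) and above 1 in both for 6 (Cdc45, Clspn, Rrm1, Rrm2, Tyms and Usp1). In both untreated libraries it did so for 2 genes below 1 (Pcna and Slbp) and 2 above (Rrm1 and Usp1), with fewer UMIs behind each value. No share of all genes with such intervals is given, so these counts do not set the S phase genes apart. The G2/M level that parts the groups differed between conditions. The highest group after LPS held 5794 and 5513 CPM of G2/M transcripts (null label and WT), and the lowest group untreated 5470 and 3930 CPM, so groups of the same rank are not the same cells.

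**Figure D5:**
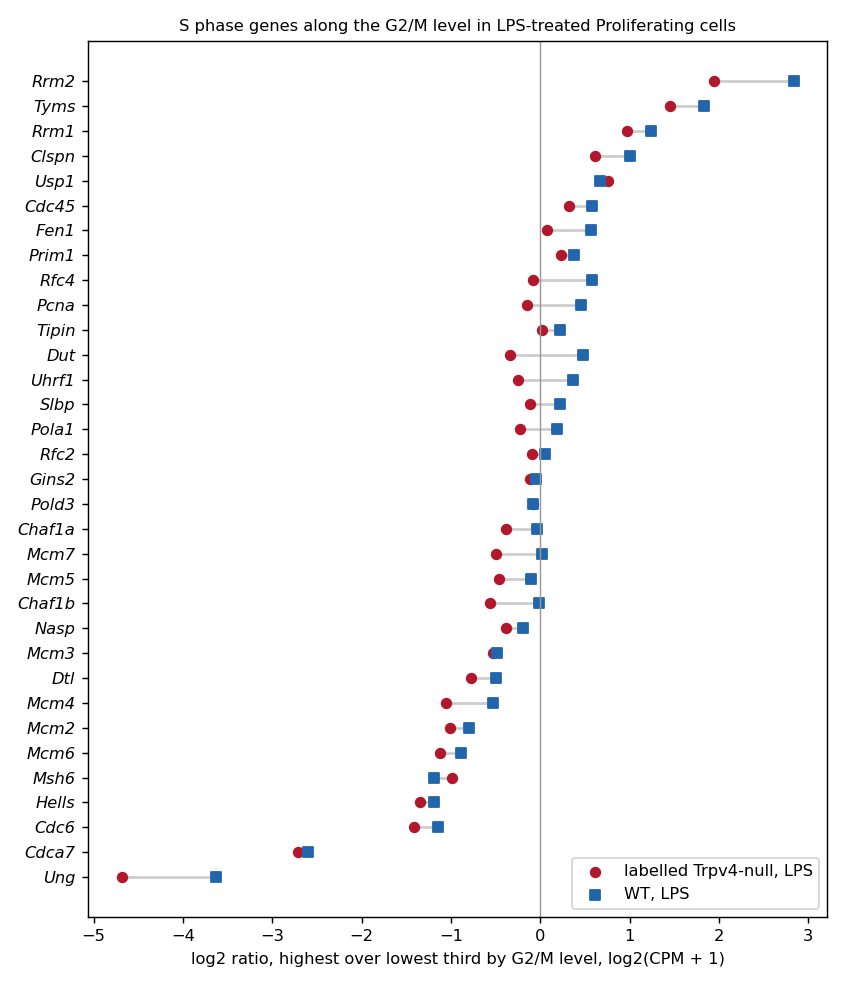
Log2 ratio of CPM, highest over lowest of 3 equal groups of Proliferating cells ordered by G2/M transcripts, for each S phase gene in the LPS-treated libraries labelled Trpv4-null (circles) and WT (squares). Rrm2 (1.94 and 2.84) and Tyms (1.45 and 1.83) lie to the right, Cdc6 (-1.42 and -1.15) and Hells (-1.34 and -1.19) to the left, and the point of Ung rests on 0 CPM in the highest group under the null label.

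Between the genotype labels, the summed S phase level differed less than between LPS and untreated cells. Untreated, the sum in Proliferating cells was 1241 CPM under the null label and 1156 CPM in WT, a ratio of 1.07 (1.03 to 1.12). Of 23 genes compared, 16 were higher under the null label (44.8% of all 6507 genes compared were). At 1.5-fold, 0 were higher (1.08% of all genes were) and 0 lower (0.722% were). Of the genes compared, Tyms came closest, with 30.2 CPM under the null label and 20.5 CPM in WT, a ratio of 1.47 (1.12 to 1.96), followed by Clspn at 1.39 (1.12 to 1.72), Chaf1a at 1.26 and Rrm2 at 1.25. Under the minimum of CPM, Cdc45 had 13.9 CPM under the null label and 6.06 CPM in WT, from 87 and 21 UMIs, a ratio of 2.29 (1.41 to 3.89), and Cdc6 had 5.27 and 3.17 CPM, a ratio of 1.66 (0.818 to 3.64). The lowest ratios of those compared belonged to Dut at 0.795 (0.627 to 1.0115), Slbp at 0.856, Mcm4 at 0.935 and Tipin at 0.947. After LPS the order was reversed, with 2491 CPM under the null label and 2829 CPM in WT, a ratio of 0.880 (0.867 to 0.894). Of 30 genes compared, 25 were lower under the null label (56.3% of all 5617 genes compared were). Again 0 were 1.5-fold higher (1.19% of all were) or lower (0.303% were). Under the minimum of CPM, Cdca7 had 5.94 CPM under the null label and 10.0 CPM in WT, a ratio of 0.593 (0.438 to 0.799), and Ung 10.6 and 16.3 CPM, a ratio of 0.651 (0.518 to 0.816). Hells had 41.9 CPM under the null label and 59.5 CPM in WT, a ratio of 0.704 (0.628 to 0.790), and Dut 79.2 and 107 CPM, a ratio of 0.739 (0.679 to 0.803), followed by Mcm2 at 0.776 and Uhrf1 at 0.790. Chaf1b and Tyms went the other way, with ratios of 1.20 (1.05 to 1.37) and 1.20 (1.09 to 1.31), as did Gins2 at 1.065 and Prim1 at 1.032. Outside the cluster the sums were 364 CPM under the null label and 374 CPM in WT untreated, and 366 and 368 CPM after LPS. Of the genes compared there, Pcna was the furthest apart, with 41.8 CPM under the null label and 55.1 CPM in WT untreated, a ratio of 0.759 (0.712 to 0.809), while after LPS it had 61.9 and 58.8 CPM, a ratio of 1.05 (1.02 to 1.09).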

How the data were processed

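The deposited table gives, per the file headers and values, whole-number UMI counts of 14432 genes in 27366 cells of 4 libraries, not normalized. The deposited annotation gives the library and cluster of each cell, its UMI count and the fraction of mitochondrial UMIs, as the authors wrote them. The submitters' processing notes name Cell Ranger 3.1.0, Seurat 4, R 4.2 and mm10. No source used here gives the authors' filters, doublet handling or strand setting. The cell sums matched the annotation in all 27366 cells.

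UMIs were summed per library, over all, Proliferating and other cells, and scaled to CPM. Log2 ratios used a pseudocount of 1 CPM, which understates ratios of low genes. Exact Poisson, conditional and Clopper-Pearson 95% intervals were computed, and a ratio's size was counted at 1.5-fold and 2-fold. With 1 library per group no test was made. The S phase genes, the lists and the settings were chosen with earlier results of these data known. Any of the 33 genes could be named; the rule names the 4 highest and 4 lowest compared in each comparison, which are given for Proliferating cells and for LPS in other cells, and elsewhere only in part, and up to 3 highest and 3 lowest of each other list. Alternatives were TMM (edgeR 4.0.16 in R 4.3.3) and median-of-ratios scaling, a depth minimum of 3000 UMIs, thinning, equal cluster weights, other pseudocounts and minimums, and, added after seeing the data, removal of cells with granule transcripts. Scripts ran in Python 3.11.15 with pandas 2.3.3, scipy 1.17.1, matplotlib 3.10.9 and numpy 2.4.6, and the ratio step was tested on simulated counts. Groups are as labelled, and no sample was left out.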

Additional observations from a re-analysis of the deposited data

Results flagged for a closer look

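Rrm1, the large subunit of ribonucleotide reductase, had LPS ratios of opposite direction in the 2 genotypes when all cells were summed and scaled by library total. It had 34.1 CPM after LPS and 36.4 CPM untreated in the libraries labelled Trpv4-null (log2 ratio -0.09), and 32.2 CPM after LPS and 26.5 CPM untreated in WT (log2 ratio 0.27). The difference of the log2 ratios, null label minus WT, was -0.36, and it was not tested, since each group is 1 library. With TMM and with median-of-ratios scaling, the null-label log2 ratio was 0.48 and 0.50 and the WT one 0.78 and 0.79, so the opposite direction holds with library totals alone. Inside the Proliferating cluster, Rrm1 was higher after LPS in both genotypes (ratios of 1.16 and 1.48).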

How the results depend on the processing

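No paired analysis was possible because the labels give no replicate numbers and each group is 1 library, so no library could be left out either. In Proliferating cells the log2 ratio of the summed S phase genes (1.0047 and 1.29 for LPS under the null label and in WT) was 1.4997 and 1.77 with TMM, 1.51 and 1.76 with median-of-ratios scaling and 1.13 and 1.48 with thinned cells, and that of the genotype labels after LPS (-0.18) was -0.15, -0.12 and -0.21. Over all cells the LPS values (0.33 and 0.40) were 0.92 and 0.92 with TMM, 0.94 and 0.93 with median-of-ratios scaling, 0.28 and 0.44 without Pcna and Rfc2, 0.40 and 0.45 with thinned cells and 0.45 and 0.55 with clusters weighted equally. For the genotype labels over all cells, the untreated value (0.14) was 0.22 without Pcna and Rfc2, 0.086 with thinned cells and 0.0089 with equal cluster weights. The value after LPS (0.07) was 0.14 with TMM, 0.15 with median-of-ratios scaling and 0.037 with thinned cells, and it turned to -0.097 with equal cluster weights, as did the median gene (-0.10). Outside the cluster the LPS values (0.01 and -0.03) were 0.59 and 0.50 with TMM and 0.61 and 0.51 with median-of-ratios scaling, the WT ones being of the other sign. Without Pcna and Rfc2 the null-label value was -0.098, and with thinned cells the WT value was 0.025, both of the other sign. The median LPS ratio of the S phase genes there (-0.17 and -0.19) turned to 0.50 and 0.37 with TMM, 0.52 and 0.38 with median-of-ratios scaling and 0.065 and 0.065 without the minimum. The genotype values outside (-0.04 untreated and -0.01 after LPS) were 0.035 untreated without Pcna and Rfc2, the other sign, and after LPS 0.070 with TMM and 0.079 with median-of-ratios scaling, both of the other sign, and -0.032 without those 2 genes and -0.052 with thinned cells. S phase UMIs per G2/M UMI in Proliferating cells were 0.883, 0.129, 1.12 and 0.128 without Smc4 and Cenpa, in the order null label LPS, null label untreated, WT LPS and WT untreated. The causes of these shifts were not tested. The 4 Proliferating cells with granule transcripts were also taken out, an alternative chosen after seeing the data. In that cluster this gave log2 ratios of 1.0075 and 1.30 for LPS and 0.10 and -0.19 for the genotype labels (untreated and LPS). Over all cells, 4 and 3 S phase genes were at least 1.5-fold higher after LPS (null label and WT). The counts were 7 and 7 with either scaling and 13 and 12 without the minimum. Either scaling raises the LPS ratios of all genes. No share of all genes at 1.5-fold is given for these settings, so the counts do not set the S phase genes apart. Depth limits Cdca7 and Ung, whose untreated levels rest on few UMIs.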
